A study of Mus musculus with 6 samples.

Results

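STHdhQ111/Q111 cells (called Q111 here) are mouse striatal cells from HdhQ111/Q111 knock-in embryos, whose huntingtin carries an expanded polyglutamine tract. HSF1 was mapped in them by chromatin immunoprecipitation and sequencing at the growth temperature of 33 °C without treatment and after 6 hours at 42 °C. Members were the peaks of both Q111 lists, 292 at 33 °C and 2161 at 42 °C, or 2453 of the 8886 peaks in the 4 HSF1 lists of the series. The remaining 6433 peaks come from STHdhQ7/Q7 cells (Q7 here), which express wild-type huntingtin and were treated alike. Both Q111 libraries share the genotype, the G418 selection medium and the HSF-1 antibody, and differ in heat shock. Each temperature had 1 library, so no value below has a replicate error and no test between temperatures was possible. Peaks of 1 list share that library and its unknown depth, and are not replicates of a condition. The lists hold no readout of the huntingtin genotype or of striatal identity, so neither label was checked.

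HSF1 is the main transcription factor of the heat shock response. In unstressed cells most of it is held inactive by chaperones. Protein-damaging heat frees it to form trimers, enter chromatin and bind heat shock elements, which are inverted repeats of a short GAA-containing unit. Its classical targets encode chaperones, which keep misfolding proteins soluble, and for that reason the factor has long been studied in polyglutamine disease.

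The measure used was the rank of a peak's score within its own list, with rank 1 for the highest score. Tied peaks took the mean of their ranks, so the 12 peaks of the 42 °C list that share its highest score, 3100, all stand at rank 6.5. Whether 3100 is a ceiling of the score is not known, so the order of these 12 peaks, and the exact rank changes of the sites among them, are not known either. A 33 °C peak was called kept if it shared at least 1 base with a 42 °C peak, and lost if it did not. A 42 °C peak was called held if it shared at least 1 base with a 33 °C peak, and gained if it did not. A lost peak is one that is no longer in the list. The lists say nothing about signal below the calling threshold. All coordinates are on mouse build mm9 and counted from 1.

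Heating left most of the unheated sites in the list and added many more. Of the 292 peaks at 33 °C, 259 were kept, which is 88.7% (95% Wilson interval 84.6 to 91.8, counting error only). Of the 2161 peaks at 42 °C, 262 were held, or 12.1%, and 1899 were gained. Overlapping peaks were joined into 250 kept sites. Of these, 232 had 1 peak in each list, 9 had 1 peak at 33 °C and 2 at 42 °C, 6 had 2 peaks at 33 °C and 1 at 42 °C, and 3 had 2 in each. The centres of the peaks that stand for a kept site lay a median of 57.5 bases apart between temperatures.

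Whether a peak was kept went with its rank. The first lost peak stood at rank 167 at 33 °C, so all of the 166 peaks ranked above it were kept by the choice of that cut. From rank 167 down, 93 of 126 were. When the list was divided into 10 groups by score, the 5 highest groups kept every peak. The next 5 kept 96.6%, 93.1%, 79.3%, 62.1% and 56.7%, each of 29 or 30 peaks. The interval of the lowest group was 39.2% to 72.6%. The 42 °C list showed the converse. Of its highest-scoring group of 216 peaks, 97 or 44.9% (38.4 to 51.6) were held, against 24.5% and 22.2% of the next groups and 1 of 217 in the lowest.

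**Figure D1:**
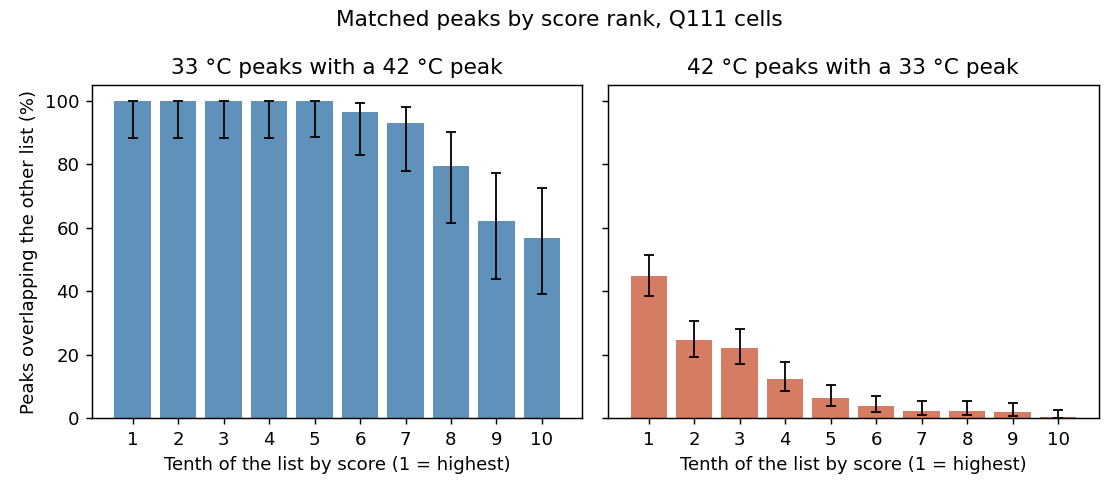
Share of Q111 peaks that overlap a peak of the other temperature (vertical axis, percent), in 10 groups by score rank (horizontal axis, 1 is the highest), for the 33 °C list on the left and the 42 °C list on the right. Bars give the share in 1 library and lines its 95% Wilson interval, and the share falls from 100% to 56.7% on the left and from 44.9% to 0.461% on the right.

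The 33 lost peaks stood low in the 33 °C list, at a median rank of 258 (range 167 to 291.5), against 130 (1 to 291.5) for the kept ones. Of the 33, 24 were among the 59 lowest-ranked peaks. The lost peak with the highest rank lay at chr14:51427028-51427532 and stood 167th. The next were at chr11:97563506-97564199 (rank 179), chr15:32930312-32930796 (rank 193), chr13:109610016-109610559 (rank 206) and chr4:58284449-58284997 (rank 210). The other 5 of the 10 highest, with ranks from 213 to 235, were chr10:39978229-39978847, chr5:114550105-114550553, chr9:62980954-62981445, chr6:52126814-52127406 and chr2:13466118-13466526. Lost sites were not displaced by a short distance. The nearest 42 °C peak lay a median of 256 kb away, and for 1 of the 33 it lay within 20 kb, for the peak of rank 193 on chromosome 15.

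Lost peaks were solitary and were rarely seen in the other cell line. None of the 33 had another 33 °C peak within 20 kb, which allows a share of up to 9.09% (3 counts of 33). The Wilson interval of this share reached 10.4%. Among the 259 kept peaks 109 had such a neighbour, or 42.1% (36.2 to 48.2). Part of this difference goes with rank, since lost peaks ranked low. Among the 126 peaks from rank 167 down, the 22 with such a neighbour were all kept, and 71 of the 104 without one were, or 68.3% (58.8 to 76.4). A Q7 peak at 33 °C overlapped 60.6% of all Q111 peaks at 33 °C, but 1 of the 33 lost ones, at chr6:56654461-56654903. A Q7 peak at 42 °C overlapped 85.3% of the Q111 peaks at 33 °C, but 3 of the lost ones, which start on chromosome 11 at 97563506 and 94188942 and on chromosome 2 at 142888600. From rank 167 down, 83 of the 86 peaks with a Q7 peak at 42 °C were kept, or 96.5% (90.2 to 98.8), and 10 of the 40 without one, with an interval of 14.2% to 40.2%. Both shares are of peaks in 1 pair of libraries, and the difference was not tested. From rank 167 down the kept share still fell with rank, to 56.7% in the lowest of the 10 score groups. Neither the split by neighbour nor that by Q7 peak is therefore matched for rank.

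Gained peaks filled the lower ranks of the 42 °C list, with a median rank of 1194 against 347.5 for held peaks, but they also reached its top. Of the 12 peaks tied at the highest score, 1 was gained, at chr15:75772880-75773513. It was followed by gained peaks at chr8:87021534-87022240 (rank 16), chr11:117183865-117184558 (rank 22), chr8:37249751-37250552 (rank 24) and chr14:26006890-26007561 (rank 25). The other 5 of the 10 highest, with ranks from 30 to 38, were chr2:29056516-29057103, chr3:93375945-93376651, chr4:57685899-57686490, chr5:65058173-65058751 and chr10:76111169-76111989. All 10 overlapped a Q7 peak at 42 °C, and 4 of them also a Q7 peak at 33 °C. Those 4 were the sites on chromosome 15, on chromosome 8 at rank 16, on chromosome 14 and on chromosome 5. A Q7 peak at 33 °C overlapped 46 of the 1899 gained peaks, or 2.42% (1.82 to 3.22). Among all gained peaks 1532 or 80.7% (78.8 to 82.4) overlapped a Q7 peak at 42 °C, near the 82.4% of the whole 42 °C list, and 249 of the 262 held peaks did (91.7% to 97.1%).

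The order of the kept sites changed widely. Because the lists differ in length, the 250 kept sites were ranked among themselves at each temperature, each by its highest-scoring peak. Spearman's rho between both orders was 0.32 over the 250 sites, given as a description with no p-value, since all points come from the same libraries. The median site moved by 60.75 places, and the range ran from a rise of 223 to a fall of 190 places. There were 44 sites that rose by 100 places or more and 19 that fell as far. Of the 62 highest-ranked sites at 33 °C, 23 were in the same top group at 42 °C, 26 and 11 were in the next groups down, and 2 were in the lowest. Of the 63 lowest-ranked sites, 12 moved into the top group, 13 and 12 into the groups between, and 26 stayed in the lowest. Among the 125 sites ranked lowest at 33 °C, rho was 0.06, and among the 125 ranked highest it was 0.45.

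**Figure D2:**
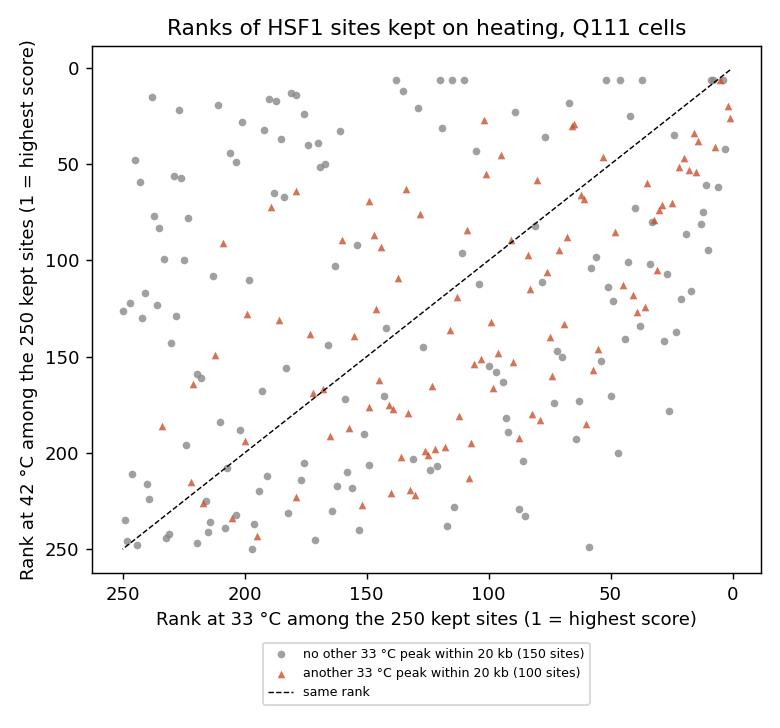
Rank of each of the 250 kept Q111 sites among the kept sites at 33 °C (horizontal axis) and 42 °C (vertical axis), with rank 1 at the right and at the top. Each point is 1 site, triangles mark the 100 sites whose 33 °C peak has another within 20 kb, and the dashed line marks equal rank. The points at the upper left are sites that stood low at 33 °C and high at 42 °C, and nearly all of them are solitary.

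The strongest sites of unheated cells moved by different amounts. Of the 10 highest-ranked 33 °C peaks, 4 were among the 12 peaks tied at the top of the 42 °C list. These were at chr1:55144505-55145213 (rank 4 at 33 °C), chr5:125873280-125873938 (rank 5), chr9:40608752-40609639 (rank 8) and chr15:81229802-81230629 (rank 9). The leading pair at 33 °C, at chr11:68853632-68854977 and chr11:68875478-68876879, stood at ranks 34 and 23 of the 42 °C list, which includes gained peaks, and moved by -25 and -18 places among kept sites. The third, at chr11:58115543-58116396, moved by -39 places among kept sites, and the seventh, at chr3:96303919-96305195, by -34 places. Of these 10, the sites at chr10:12642160-12642614 and chr18:36961354-36961872 fell furthest, by -56 and -84.5 places among kept sites. Of the 50 highest 33 °C sites, 11 were among the 50 highest at 42 °C, of which 36 were held peaks.

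Conversely, the top of the 42 °C list drew from the whole range of the 33 °C list. Of its 100 highest peaks, 59 were held. Their 33 °C ranks had a median of 108 and ran from 1 to 285, and 22 of the 59 stood in the lower-scoring part of the 33 °C list, beyond rank 146. The 11 held peaks tied at the top included 4 with 33 °C ranks of 113 to 143 and gains of 104 to 132 places among kept sites. One was on chromosome 17, where a 33 °C peak at 45710157-45711031 stood at rank 118. Another was on chromosome 5, where the peak at 150438587-150439522 stood at rank 113. The others were at chr15:50003795-50004243 (rank 123) and chr2:174683937-174684399 (rank 143). The tied sites at chr4:40668955-40669731, chr8:75799849-75800353 and chr10:121340864-121341626 had stood at ranks 37, 46 and 52.

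The largest rise was that of a site on chromosome 5. Its 33 °C peak at 136355298-136356026 stood at rank 266 of 292, and its 42 °C peak at 136355103-136356160 at rank 17 of 2161. It rose by 223 places among kept sites and widened from 729 to 1058 bases. Next came chr12:111934346-111934913, which rose by 205 places among kept sites, and chr12:111611718-111612102, which rose by 197. They were followed by chr9:75270132-75270705, with a rise of 192 places, and chrX:100817523-100817928, with 184. All 5 were solitary at 33 °C, all 5 widened, by 200 to 329 bases, and all 5 overlapped a Q7 peak at 42 °C. Over all 250 kept sites, 150 were solitary, 110 were wider at 42 °C and 237 overlapped a Q7 peak at 42 °C. A Q7 peak at 33 °C was present at 1 of the 5, the second site on chromosome 12, and at 168 of the 250.

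The largest fall was on chromosome 8. A 33 °C peak at 113154157-113155374 stood at rank 59 of the 250 kept sites, and its 42 °C counterpart at 113154232-113154721 at rank 249. This site narrowed from 1218 to 490 bases and overlapped no Q7 peak at either temperature. The next sites to fall, again among the 250 kept sites, were at chrX:157203859-157204334, from rank 47 to 200, and chr6:86353742-86354288, from 26 to 178. Chromosome 4 at 151699432-151700007 moved from 85 to 233, and chr10:30530628-30531145 from 87.5 to 229. The kept site with the lowest score at 42 °C stood at rank 2057 of that list of 2161 peaks.

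Rank changes differed between solitary and grouped sites. For the 100 kept sites whose 33 °C peak had another within 20 kb, rho between temperatures was 0.59, and for the 150 solitary ones it was 0.24. Solitary sites made up 41 of the 44 that rose by 100 places or more and 14 of the 19 that fell as far. Of the 50 highest kept sites at 42 °C, 38 were solitary and 12 grouped. Among the 125 sites ranked lowest at 33 °C, 21 of the 86 solitary and 0 of the 39 grouped sites entered those 50. The solitary ones of this lower group rose by a median of 60.25 places (95% interval over sites 15 to 117) and the grouped ones by 6 (-29 to 51). Solitary sites stood lower at 33 °C to begin with, at median ranks among kept sites of 199.5 and 157 in this lower group, which leaves them more places to rise. Among the 125 sites ranked highest at 33 °C the solitary ones moved down further, by a median of -65 places (-84.5 to -46) over 64 sites, against -39 (-52 to -27) over 61 grouped sites. These intervals overlap. The solitary ones had also started higher here, at a median rank of 55 against 69, with more places left to fall. Of those upper sites, 17 solitary and 12 grouped ones were among the 50 highest at 42 °C. Of the 100 grouped sites, 41 lay on chromosome 13.

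Sites with and without a Q7 peak at 33 °C also differed. The 168 kept sites with one stood at a median rank of 93.5 among kept sites at 33 °C and 120.5 at 42 °C. The 82 without one stood at 191.5 and 133. Of these 82, 26 rose by 100 places or more and 3 fell as far, against 18 and 16 of the 168. Within the 125 sites ranked lowest at 33 °C, the median rise was 58.75 places (15 to 99) for the 68 sites without a Q7 peak and 7 (-26 to 52) for the 57 with one. The former had started lower, at a median rank of 205.5 against 168, with more places left to rise. All 44 sites that rose by 100 places or more overlapped a Q7 peak at 42 °C. Of the 250 kept sites 13 did not, and these stood at ranks 59 to 249 among kept sites at 33 °C and 196 to 250 at 42 °C.

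Peaks of the 42 °C list were narrower than those of the 33 °C list. The median width was 549 bases at 33 °C (quartiles 464.75 and 680.5) and 444 bases at 42 °C (351 and 543). Gained peaks were the narrow ones, with a median of 428 bases, whereas held peaks measured 531 bases. At 33 °C, kept peaks measured 562 and lost peaks 505 bases at the median. The 93 kept peaks from rank 167 down, the range that holds the lost ones, measured 518 bases. They are not matched to the lost peaks in rank, since 24 of the 33 lost peaks were among the 59 lowest-ranked. Width went with score within each list, with rho 0.38 over the 292 peaks at 33 °C and 0.55 over the 2161 at 42 °C. Depth is unknown, and its part in these widths was not tested.

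Kept sites changed width in both directions, with each site measured by its highest-scoring peak in each list. At 42 °C, 110 were wider and 140 narrower, with a median difference of -24 bases (95% interval over sites -51 to 3), an interval that includes 0. Width moved with rank, with rho 0.47 between the rise in rank and the gain in width. Of the 44 sites that rose by 100 places or more 34 widened, with a median of 162.5 bases, and of the 19 that fell as far 4 widened, with a median difference of -119 bases. The site that widened most was that at chr17:45709256-45711185, from 875 to 1930 bases, which is also the widest of the 2161 peaks. The next were chr13:22031930-22033130 (285 to 1201 bases) and chr11:97849273-97850538 (495 to 1266 bases). Each of these joined 2 peaks of the 33 °C list into 1, so the 33 °C width is that of the higher-scoring peak alone. The sites that narrowed most were chr19:12085230-12087101 (1872 to 1131 bases) and the leading site of the 33 °C list on chromosome 11 (1346 to 618 bases). Both were split into 2 peaks at 42 °C, so the 42 °C width is that of the higher-scoring peak alone. The falling site on chromosome 8 changed by -728 bases with no split.

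**Figure D3:**
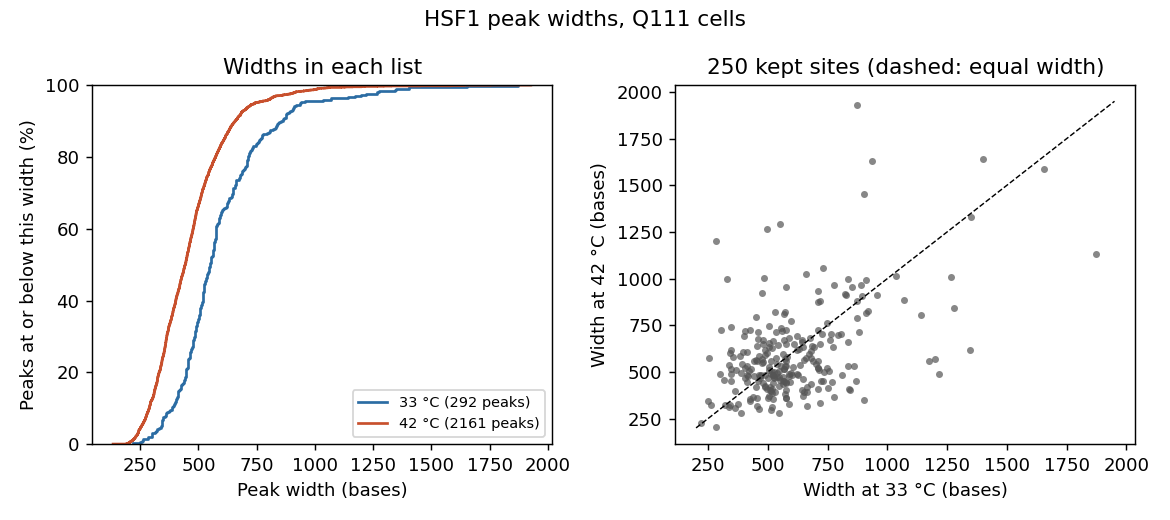
Left, share of peaks (vertical axis, percent) at or below a given width in bases (horizontal axis) for the 292 peaks at 33 °C and the 2161 at 42 °C. Right, width at 42 °C against width at 33 °C in bases for the 250 kept sites, 1 point each, with a dashed line at equal width. The 42 °C curve lies to the left, with medians of 444 and 549 bases, while the kept sites lie on both sides of the line.

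Only the widest peaks of each list were named, and wide peaks were not counted. At 33 °C the widest were those at chr19:12085230-12087101, chr3:19527720-19529373 (1654 bases) and chr11:68875478-68876879 (1402 bases), all kept. At 42 °C the peak on chromosome 17 was followed by one at chr11:76098951-76100703 (1753 bases) and one at chr11:68875715-68877354 (1640 bases). The 1753-base peak was gained and stood at rank 56, and the 1640-base peak was held.

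Peaks lay on the 19 autosomes and X at both temperatures, but their distribution changed on chromosome 13. This chromosome held 57 of 292 peaks at 33 °C, or 19.5% (15.4 to 24.5), and 171 of 2161 at 42 °C, or 7.91% (6.85 to 9.13). Its peaks thus increased 3.00-fold, against 7.40-fold in all and 8.47-fold outside it. Of its 57 peaks at 33 °C, 46 had another within 20 kb and 1 was lost. Chromosome 4 stood at the other end, with 5 peaks at 33 °C (1.71%, 0.734 to 3.95) and 110 at 42 °C (5.09%, 4.24 to 6.10), a 22.0-fold increase. These were the 2 of 20 chromosomes whose share intervals did not overlap between temperatures. Shares were not set against chromosome length, because no mm9 lengths were used here.

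**Figure D4:**
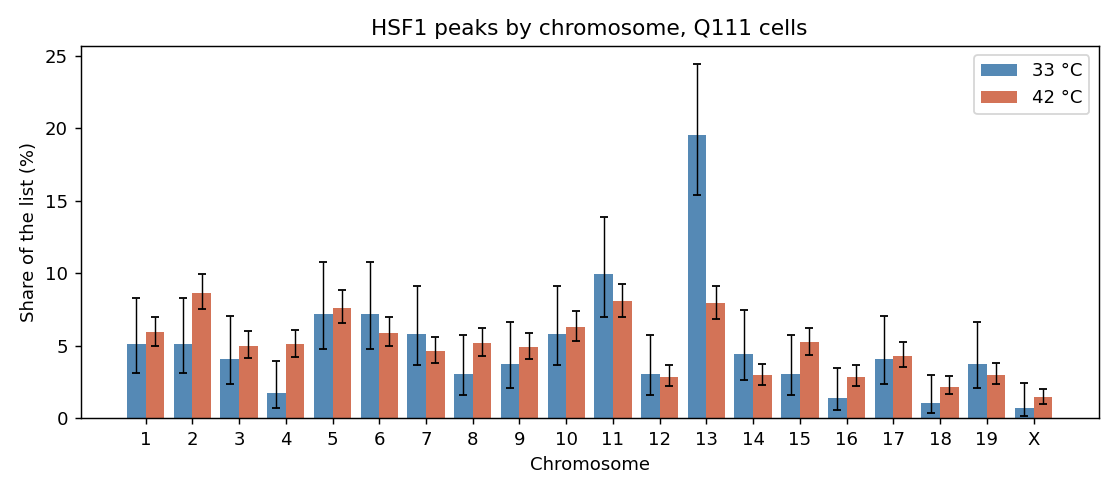
Share of the Q111 peak list on each chromosome (vertical axis, percent) at 33 °C and 42 °C, 1 library each. Bars give the share and lines its 95% Wilson interval, and chromosome 13 falls from 19.5% to 7.91% while chromosome 4 rises from 1.71% to 5.09%.

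Few peaks at 33 °C underlie the other large ratios, among them chromosome 18 (3 to 47 peaks), chromosome 16 (4 to 62) and X (2 to 31). The lost peaks were spread over 16 chromosomes. Chromosomes 10 and 15 each lost 4, out of 17 and 9 peaks at 33 °C. Chromosomes 2, 9 and 14 lost 3 each, out of 15, 11 and 13. None was lost on chromosomes 3, 12, 18 and X, which held 12, 9, 3 and 2 peaks at 33 °C. Over all chromosomes 33 of 292 were lost. Kept sites rose in rank most on chromosome 5 among chromosomes with 10 or more kept sites, with a median of 79.75 places over 20 sites, of which 11 rose. They fell most on chromosome 10, with a median change of -63 places over 13 sites, and 14 of the 19 sites on chromosome 6 fell. Over all 250 kept sites the median change was -20.5 places, with 103 sites that rose and 147 that fell.

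Grouping of peaks was a larger feature of the 33 °C list. At 33 °C, 109 of 292 peaks, or 37.3% (32.0 to 43.0), had another peak of the list within 20 kb, and at 42 °C 479 of 2161 did, or 22.2% (20.5 to 24.0). Within 1 kb the shares were 22.3% and 7.45%, and within 5 kb they were 31.5% and 14.0%. Within 100 kb they were alike, at 41.4% and 40.2%. The median distance to the nearest peak nevertheless fell from 398 kb to 163 kb, as the list grew. Solitary peaks increased 9.19-fold, from 183 to 1682, and peaks with a neighbour 4.39-fold. When peaks with 3 or more others within 20 kb were removed from each list, the shares within 20 kb were 17.9% and 17.5%. That removal uses the neighbour count that is then measured, so it lowers both shares by construction. All 109 grouped peaks at 33 °C were kept.

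**Figure D5:**
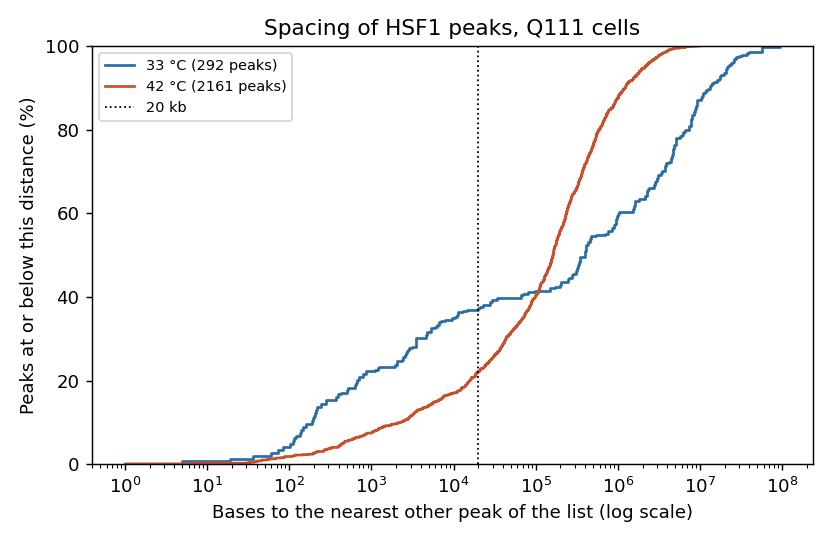
Share of Q111 peaks (vertical axis, percent) whose nearest peak of the same list lies at or below a given number of bases (horizontal axis, log scale), at 33 °C and 42 °C. Lines are the 2 lists, 1 library each, and the dotted line marks 20 kb, where the shares are 37.3% and 22.2%; the curves cross near 100 kb.

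Groups of 33 °C peaks had more, as many or fewer peaks at 42 °C. Most gained peaks lay far from any 33 °C site. The 27 groups of 2 or more peaks at 33 °C, linked by gaps of up to 20 kb, became 181 at 42 °C, and those of 5 or more peaks rose from 6 to 14. The largest group at 33 °C, at chr13:23492540-23559224, held 14 peaks, all kept, and 17 at 42 °C. The group at chr13:21291888-21371888 grew from 8 to 11 peaks, and that at chr13:23592695-23622432 held 9 peaks at both temperatures within its 33 °C bounds. The fourth largest, at chr13:21252513-21264869, held 7 peaks at 33 °C and 5 at 42 °C. All 7 were kept, and the count fell where 2 peaks at 33 °C matched 1 at 42 °C. The group at chr1:172963709-172975321 held 5 at both. At 42 °C the second largest group, at chr13:21973621-22033130, held 13 peaks, of which 3 were held from 33 °C. Of the 1899 gained peaks, 60 or 3.16% (2.46 to 4.05) lay within 20 kb of a 33 °C peak, 24 of them on chromosome 13. The median gained peak was 3.13 Mb from the nearest 33 °C peak. Gained peaks within 20 kb of a 33 °C peak had a median rank of 1079.5 (95% interval over peaks 794 to 1415), and the others 1201 (1154 to 1246), so the intervals overlap.

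In the Q7 lists, which come from other libraries of unknown depth, some of these features recurred and others did not. In Q7 cells 94.2% of the 33 °C peaks overlapped a 42 °C peak, and the loss also lay in the lower score groups. The Q7 list at 42 °C holds 6173 peaks against 2161 in Q111 cells, so the kept shares refer to lists of unlike length. Over the 231 Q7 kept sites rho was 0.14, with 0.47 for the 76 grouped and 0.06 for the 155 solitary sites. At the 167 Q111 kept sites that overlapped a Q7 peak at both temperatures, ranked among themselves in each line, rho between temperatures was 0.43 in Q111 and 0.22 in Q7 cells. Rank changes at these sites had the same direction in both lines in 125 of 167 cases, with rho 0.69 between them. The share of peaks with a neighbour within 20 kb was 34.6% at 33 °C and 33.4% at 42 °C in Q7 cells, where the 42 °C list was longer. At shorter distances the Q7 shares fell much as in Q111 cells, from 23.1% to 7.13% within 1 kb and from 30.8% to 16.2% within 5 kb. Kept sites in Q7 cells widened, by a median of 195 bases (155 to 223), and 194 of 231 were wider at 42 °C. None of these differences between lines could be tested with 1 library each.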

How the data were processed

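Peaks were called by the authors with MACS 1.4.0rc2 on mouse build mm9, per the submitters' processing notes, with 1 deposited list per library. The sources used here do not state the aligner, filters, background library or depth. The deposited score of each peak has no header and was read as the MACS score, an inference. It was used only to rank peaks within a list. Scores began at 90.54 at 33 °C and 90.00 at 42 °C. The 2 control IgG libraries were not analysed here.

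Lists were compared with a minimum overlap of 1 base with pandas 2.3.3, scipy 1.17.1 and numpy 2.4.6 under Python 3.11.15; figures used matplotlib 3.10.9. Distances are bases between peak edges. Shares carry 95% Wilson intervals and medians binomial order-statistic intervals over peaks, both for counting error only. The code was checked on simulated lists. The members, alternatives and naming rule (highest, tied, most moved, widest and most grouped peaks) were chosen with earlier results of these data known. Groups beyond the 3 largest were named after their values were seen. The gene and promoter tables at hand are on another build, so peaks carry no gene names or sequences.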

Additional observations from a re-analysis of the deposited data

Results flagged for a closer look

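Median peak width differed in sign between the cell lines. The median width of the list changed by -105 bases from 33 to 42 °C in Q111 cells and by 74.5 bases in Q7 cells. Over kept sites the median difference was -24 bases in Q111 cells, with a 95% interval over sites of -51 to 3 that includes 0, and 195 bases (155 to 223) in Q7 cells. The difference between lines was not tested, since each line and temperature had 1 library, and line and library cannot be told apart.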

How the results depend on the processing

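Alternative settings gave 44 repeated values. Of these, 33 lay inside the reported value's own interval (for the rank correlation, within 0.1) and 11 lay outside it. Shares, rank percentiles and peak widths cannot be negative. Only the rank correlation and the width difference of kept sites could therefore change sign, and 0 of their repeats did. The rank correlation of kept sites ran from 0.27 to 0.33 over 7 alternatives. Trimming the 42 °C list to its 292 highest peaks lowered the kept share to 42.1%, which the removal of 42 °C peaks cannot raise. The held share rose to 39.7%, since held peaks stood high in the 42 °C list. Removing peaks with 3 or more others within 20 kb from each list gave a kept share of 78.2% and a held share of 8.90%. It put the median lost peak at 73.4% of the way down the 33 °C list, against 88.4%, because 33 °C peaks whose 42 °C counterpart was removed then count as lost. The shares of peaks with a neighbour within 20 kb became 17.9% at 33 °C and 17.5% at 42 °C, by construction, since the removal uses the same neighbour count. Within 5 kb they were 31.5% and 14.0%, and within 100 kb the 42 °C share was 40.2%. A minimum score of 100 moved the median width at 42 °C to 453.5 bases. No paired analysis was possible because each group holds 1 library. Genes and heat shock elements at peaks were not analysed here. Depth is unknown, so lost and gained peaks cannot be told apart from peaks that crossed the calling threshold.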
